A study of Mus musculus with 48 samples.

Results

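Snai1, Snai2, Twist1, Twist2, Zeb1 and Zeb2 encode the transcription factors best known for driving epithelial cells into a mesenchymal state. They are 6 of the 55335 gene rows in each of 4 deposited expression tables, found by gene symbol, and each was present in every table. The study asked how osteocytes, the cells embedded in bone matrix, change under mitochondrial stress and with age. Values were available for 27 libraries in 9 groups of 3, all from wild-type C57BL/6J mice or from MLO-Y4, an osteocyte-like mouse cell line. The 6 genes were chosen by gene family after expression differences measured in these data were known, among them those of Snai1 in the 2 comparisons that involve cells given vehicle supernatant. Those comparisons, and the difference of responses built from them, are therefore given as descriptions with no p-value for any gene. Where a gene there is said to pass, it met the same limma threshold as elsewhere, and nothing about the 6 genes is read from those counts.

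In the oligomycin experiment, MLO-Y4 cells were given oligomycin A, an inhibitor of the mitochondrial ATP synthase, for 1 h at a working concentration that the treatment protocol puts at 50 µM. Their vehicle was an equal volume of the solvent DMSO. Normally cultured MLO-Y4 cells, here called recipients, were then given the supernatant of the oligomycin A cultures or of the vehicle cultures for 2 h. The treatment label of the vehicle libraries also names oligomycin A, and the groups were taken from the sample titles. No label says that the drug was removed from the supernatant. In a separate table, MLO-Y4 cells stimulated with 2 µM ADP for 2 h were set against cells with no ADP. In another, bone fragments of 1-month-old mice were cultured for 48 h after a medium transfer, or as their control; the labels do not say which donor medium each of these groups received. The last table held cortical bone of 18-month-old mice, with no comparison group, and its protocol describes a harvest that included marrow. Nothing in the labels ties a replicate to its own culture or animal, and p-values therefore cover the spread between libraries, which may be technical.

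Snail proteins (Snai1, Snai2) are zinc-finger repressors that bind the E-box CACCTG and silence epithelial genes such as Cdh1, which encodes E-cadherin. Twist proteins (Twist1, Twist2) are basic helix-loop-helix factors that bind DNA in pairs with E proteins, and Id proteins compete for those partners. Zeb proteins (Zeb1, Zeb2) carry zinc-finger clusters at both ends and recruit CtBP corepressors. Bone cells are of mesenchymal origin. In mouse bone, Twist proteins hold back the osteoblast factor Runx2, and Snai1 represses Runx2 and the vitamin D receptor gene Vdr.

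Because paralogs can share reads, the longest exact stretch common to the transcripts of each pair was located on GRCm38 with the GENCODE M21 annotation. Snai1 lies on chromosome 2 (167538195 to 167542814, plus strand) and Snai2 on chromosome 16 (14705852 to 14709385, plus strand). Their longest shared stretch was 23 bases in exon 1 of both, at chr2:167538289-167538311 in Snai1 and chr16:14705973-14705995 in Snai2, both on the plus strand, with the start codon in capitals:
Snai1 and Snai2: cATGccgcgctccttcctggtca
Twist1 (chromosome 12) and Twist2 (chromosome 1) also shared at most 23 bases, within exon 1 of both, and Zeb1 and Zeb2 shared up to 35 bases, which are not shown. The stretch lies on the plus strand at chr12:33958380-33958402 in Twist1 and chr1:91801891-91801913 in Twist2:
Twist1 and Twist2: ctgcgcaagatcatccccacgct
The Snai1 upstream sequence is shown because Snai1 protein is known to bind an E-box in its own promoter. RefSeq promoter windows (250 bases before the start site and a short stretch after it, GRCm38.p6) were used here for 4 of the members, in 7 windows. Neither Snai2 nor Zeb1 was among those members. The Snai1 window was the 1 window of the 7 that held CACCTG, in capitals below, starting 126 bases before the start site. The 250 bases before the start site run over chr2:167537945-167538194 on the plus strand:
Snai1: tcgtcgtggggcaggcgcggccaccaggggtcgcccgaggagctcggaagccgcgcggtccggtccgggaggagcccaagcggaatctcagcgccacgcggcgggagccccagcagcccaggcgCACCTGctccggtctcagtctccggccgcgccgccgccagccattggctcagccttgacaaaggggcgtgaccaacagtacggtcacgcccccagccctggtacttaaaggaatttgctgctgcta
On either strand, CACCTG was present in 20.2% of all 32851 RefSeq windows of this length. The general E-box CANNTG, which includes CACCTG, was present in 72.3% of them, and among the 7 member windows it too was found in that of Snai1 alone. These matches describe letters, not binding sites.

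Levels are given in FPKM, in which fragment numbers are divided by transcript length and by library size. In vehicle-treated MLO-Y4 cells the order was Twist1, Snai1, Zeb1, then Snai2 and Zeb2, whose libraries overlapped, and Twist2 last. Twist1 had 30.0, 28.9 and 29.2 FPKM there, against 2.20, 2.24 and 2.13 FPKM for Twist2. The 6 genes together summed to between 79.2 and 88.0 FPKM in vehicle-treated cells. In untreated cells of the ADP table Snai1 came first and Twist1 second, and Zeb1 and Snai2 overlapped. Those tables were normalized separately and their levels are not compared by test.

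Epithelial transcripts were nearly absent from MLO-Y4 cells, and most of the mesenchymal ones were present. Of 25 epithelial genes that the family is known to repress, 24 stayed below 1 FPKM in every one of the 18 MLO-Y4 libraries. Cdh1, the classic Snail target, was listed at 0 in all 18, as were the epithelial adhesion and tight junction genes Epcam and Ocln. Of 25 mesenchymal genes 7 stayed below 1 FPKM in every MLO-Y4 library, and Acta2, the smooth muscle actin gene, was listed at 0 in every library of the oligomycin table. Cdh2, another cadherin gene, was listed at 0 there in all groups but the recipients of oligomycin A supernatant. The summed level of the 25 ran from 3205 to 4656 FPKM over the 18 libraries. The osteocyte label was matched only in part: Pdpn, an early osteocyte gene, ran from 150.7 to 290 FPKM, while Sost, a mature osteocyte gene, was listed at 0 in all 18. Of 9 related factors, including Snai3 and the Twist relatives Tcf15 and Tcf21, 8 stayed below 1 FPKM in every MLO-Y4 library.

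Snai2 rose in cells given oligomycin A for 1 h, and it was the 1 member of 6 that passed the test there. Snai2 had 19.6, 20.4 and 19.8 FPKM in oligomycin A cells, against 9.10, 8.59 and 8.56 FPKM in vehicle cells. All 3 oligomycin A libraries lay above all 3 vehicle libraries by a wide margin. The ratio of the means was 2.28, and the log2 fold change was 1.10 (SE 0.11, adjusted p = 0.000174, limma with Benjamini-Hochberg adjustment over 11902 genes). The p-values of the 6 genes in this comparison carry a limit. The genes were chosen after differences in these data were known. The vehicle-treated libraries also served a comparison whose result for Snai1 was known then. Fold changes throughout are differences of log2(FPKM + 1), and the added 1 shrinks those of weakly expressed genes. Across all genes tested, 5.34% passed in this comparison (3.71% higher and 1.63% lower), and Snai2 ranked 46 by p and 88 by the size of its change.

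Its paralog Snai1 had the opposite sign. Snai1 had 20.1, 20.0 and 18.8 FPKM in oligomycin A cells, against 24.5, 21.9 and 26.1 FPKM in vehicle cells. The groups did not overlap, but the gap between the nearest libraries was small. The log2 fold change was -0.29 (SE 0.08, adjusted p = 0.0733 by limma), which did not pass. Vehicle replicate 2 stood apart from the rest of its table: 20.2% of its FPKM came from rRNA-like, 7S and satellite-like genes, against 0.177% to 0.36% in the other 11 libraries. Without that library the log2 fold change of Snai1 was -0.35, with an adjusted p of 0.0403 by limma. With all libraries rescaled without those genes it was -0.24 (adjusted p = 0.153). With all libraries rescaled to one total it was -0.14 (adjusted p = 0.653), where the median of all genes was 0.12. Over the other alternatives the adjusted p ran from 0.0355 with quantile normalization to 0.696 with one total without mitochondrially encoded genes.

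The Twist and Zeb genes did not pass. Twist1 had 34.3, 33.5 and 32.8 FPKM in oligomycin A cells, against 30.0, 28.9 and 29.2 FPKM in vehicle cells, a log2 fold change of 0.18 (95% interval 0.00 to 0.37, adjusted p = 0.221 by limma). Zeb1 had 14.5, 18.7 and 12.5 FPKM in oligomycin A cells, against 10.9, 9.91 and 12.4 FPKM in vehicle cells, a log2 fold change of 0.41 (95% interval 0.05 to 0.77, adjusted p = 0.165). For Twist1 the lowest oligomycin A library (32.8 FPKM) lay clear of the highest vehicle library (30.0 FPKM). For Zeb1 the lowest oligomycin A library lay above the highest vehicle library by very little. Without oligomycin A replicate 2, its highest library, the log2 fold change of Zeb1 was 0.26. Zeb2 had 10.3, 10.3 and 9.47 FPKM in oligomycin A cells, against 8.20, 7.75 and 9.55 FPKM in vehicle cells, and overlapped (log2 fold change 0.22, adjusted p = 0.259). Twist2, the least abundant member, had 2.65, 2.26 and 2.29 FPKM in oligomycin A cells, against 2.20, 2.24 and 2.13 FPKM in vehicle cells (log2 fold change 0.09, adjusted p = 0.784, and 0.04 without oligomycin A replicate 1). The libraries of 5 of the 6 members did not overlap between the groups, which held for 29.9% of all genes tested.

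**Figure D1:**
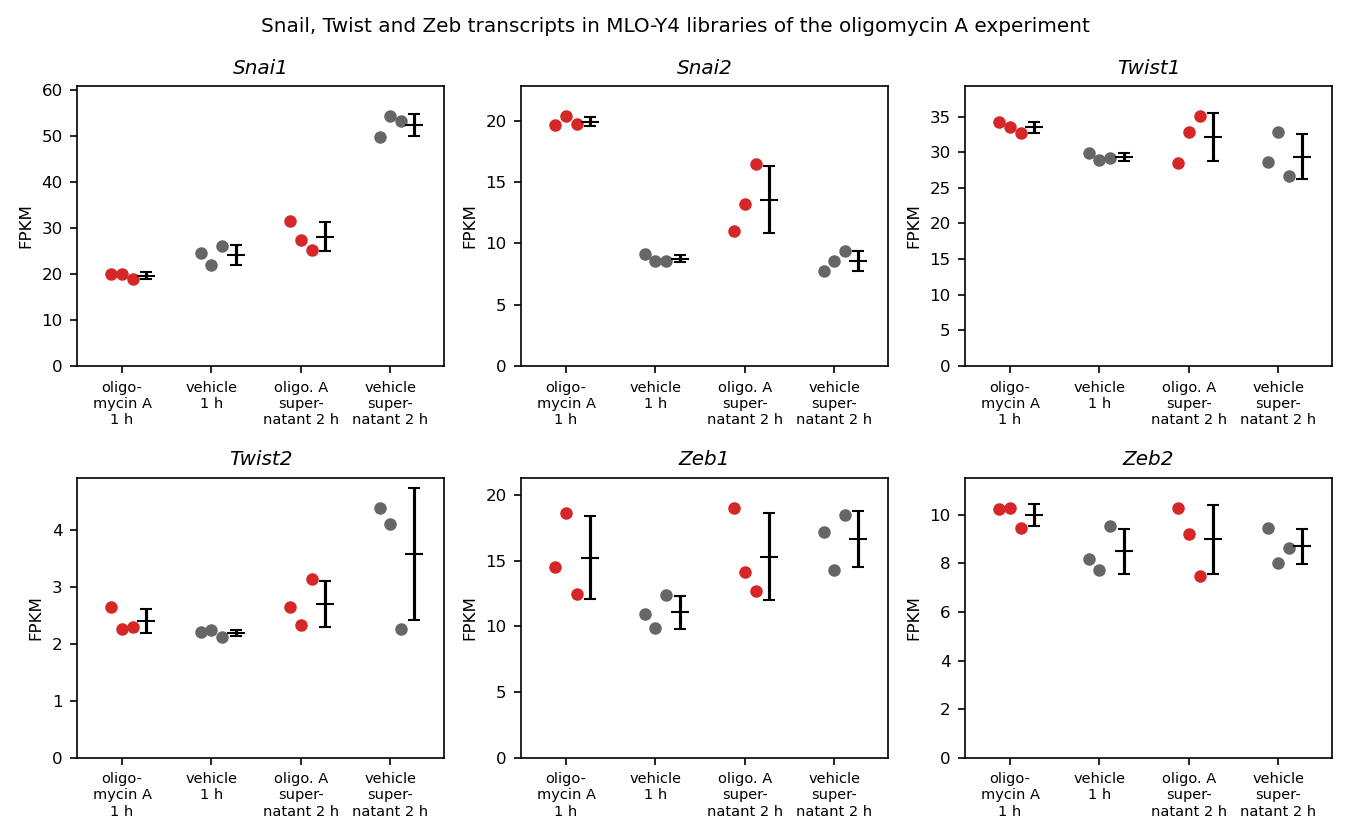
FPKM of the 6 genes in each library of the oligomycin experiment, 1 panel per gene, with points for the 3 libraries of a group and, beside them, the mean with a bar of 1 SD either way; FPKM axes start at 0. Snai2 is highest in oligomycin A cells (19.6 to 20.4 FPKM), and Snai1 is highest in recipients of vehicle supernatant (49.6 to 54.3 FPKM).

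In recipients, the same pair of paralogs again stood on opposite sides of their vehicle counterparts. Snai1 had 31.5, 27.4 and 25.3 FPKM in recipients of oligomycin A supernatant, against 49.6, 54.3 and 53.1 FPKM in recipients of vehicle supernatant. Snai2 had 11.04, 13.2 and 16.4 FPKM in recipients of oligomycin A supernatant, against 7.75, 8.60 and 9.35 FPKM in recipients of vehicle supernatant. Neither gene's groups overlapped, and among the oligomycin A supernatant libraries the one with the most Snai1 had the least Snai2. The log2 fold change was -0.88 (SE 0.08) for Snai1, a ratio of means of 0.536. For Snai2 it was 0.59 (SE 0.11), a ratio of 1.58.

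By limma 1 member of 6, Snai1, passed in recipients, where 0.386% of all genes did. Since the call on Snai1 was known when the genes were proposed, nothing is read from that count. The groups of 2 members did not overlap, against 13.1% of all genes. Twist1 had 28.5, 32.9 and 35.1 FPKM in recipients of oligomycin A supernatant, against 28.6, 32.8 and 26.6 FPKM in recipients of vehicle supernatant, and the groups overlapped. Twist2, Zeb1 and Zeb2 also overlapped, with log2 fold changes of -0.28, -0.13 and 0.04, and that of Zeb2 changed sign in 2 of the 6 fits that each left out 1 library. The recipient response minus the treated-cell response was negative for all 6 members, and its median over all genes was -0.005. The sign covers unlike changes: in recipients the fall of Snai1 was larger and the rise of Snai2 was smaller. The difference was -0.59 (SE 0.12) for Snai1, -0.51 (SE 0.16) for Snai2, -0.54 (SE 0.23) for Zeb1 and -0.37 (SE 0.23) for Twist2. For Zeb2 it was -0.18, and for Twist1 it was -0.06, which changed sign in 2 of the 12 fits that each left out 1 library. None of the 6 passed by limma, where 0.445% of all genes did. This difference is built from the recipient comparison, so nothing is read from that count.

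Snai1 was higher in recipients of vehicle supernatant than in vehicle-treated cells. Recipients of vehicle supernatant had 49.6, 54.3 and 53.1 FPKM of Snai1, against 24.5, 21.9 and 26.1 FPKM in the vehicle-treated cells. The lowest recipient library was well above the highest treated one, with a log2 fold change of 1.09 (SE 0.08) and a ratio of means of 2.16. Snai2 did not share this: it had 7.75, 8.60 and 9.35 FPKM in recipients of vehicle supernatant, against 9.10, 8.59 and 8.56 FPKM in vehicle-treated cells, and the groups overlapped. The 2 groups differ in medium and in time (2 h against 1 h), which cannot be told apart. This comparison shares its vehicle-treated libraries with the oligomycin A comparison and its vehicle supernatant libraries with the recipient comparison.

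Zeb1 was the other member that passed between these groups. It had 17.2, 14.3 and 18.5 FPKM in recipients of vehicle supernatant, against 10.9, 9.91 and 12.4 FPKM in vehicle-treated cells, a log2 fold change of 0.55 (SE 0.16). Its call was lost in 12 of 18 alternative settings, among them the fits without any 1 vehicle library. Twist2 had 4.40, 4.10 and 2.26 FPKM in recipients of vehicle supernatant, against 2.20, 2.24 and 2.13 FPKM in vehicle-treated cells, where recipient replicate 3 lay next to the vehicle libraries. In all, 2 of 6 members passed, against 14.7% of all genes (9.49% higher and 5.18% lower), and 3 did not overlap, against 34.1%. The difference of Snai1 was known when the genes were chosen, so nothing is read from these counts. The log2 differences of Snai2, Twist1 and Zeb2 were -0.03, -0.01 and 0.03, and each changed sign under at least 2 other scalings.

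**Figure D2:**
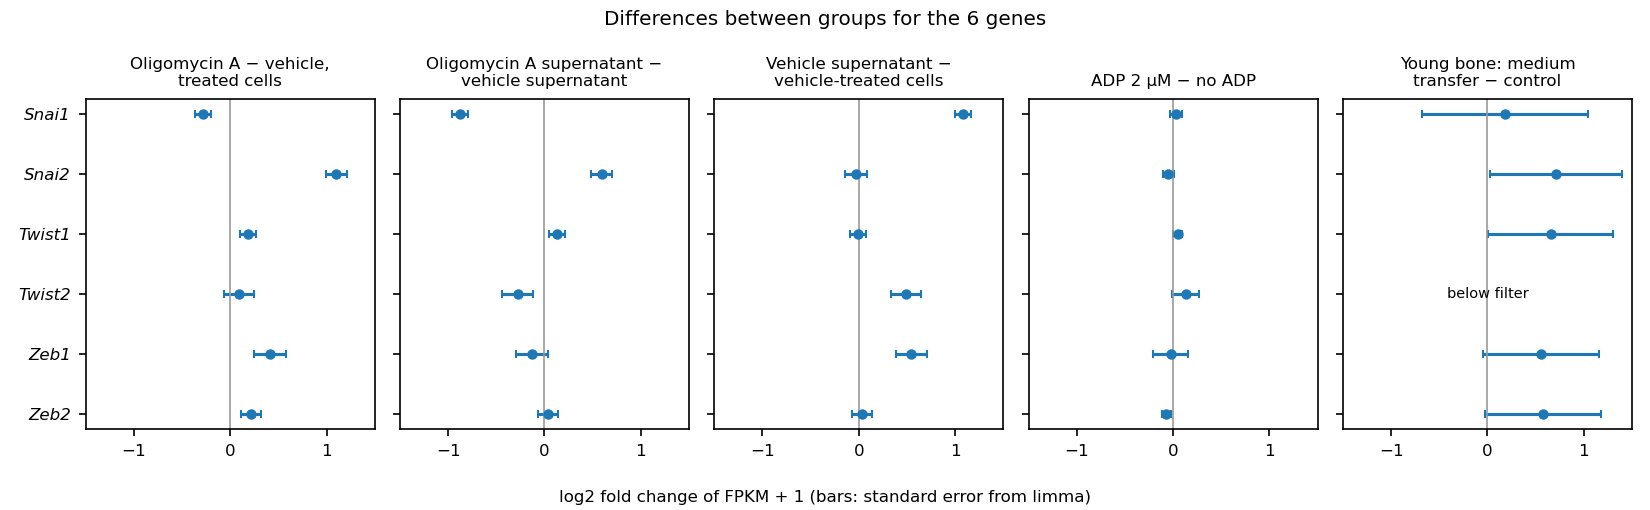
Log2 fold change of each gene, on the log2(FPKM + 1) scale, in 5 comparisons, 1 panel each; points are limma estimates, bars their standard errors, and Twist2 was below the filter in young bone. Snai1 and Snai2 lie on opposite sides of 0 in the first 2 comparisons, while the ADP estimates stay close to 0.

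Because the pair differed in sign, the ratio of Snai1 to Snai2 within each library is given as a description, chosen after the values were seen. It was 1.02, 0.981 and 0.951 in oligomycin A cells, against 2.70, 2.55 and 3.05 in vehicle cells. It was 2.85, 2.08 and 1.54 in recipients of oligomycin A supernatant, against 6.40, 6.31 and 5.68 in recipients of vehicle supernatant. In each comparison all 3 libraries with oligomycin A lay below all 3 with vehicle. Snai1 was lower and Snai2 higher without overlap in both comparisons, so this had to follow and adds no evidence. Oligomycin A cells held the pair at nearly equal levels, and recipients of vehicle supernatant were the most tilted to Snai1 of the 4 groups. Snai1 made up 19.0% to 19.8% of the summed FPKM of the family in oligomycin A cells, against 27.6% to 29.7% in vehicle cells. Snai2 made up 19.4% to 20.7% in oligomycin A cells, against 9.73% to 10.8% in vehicle cells.

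**Figure D3:**
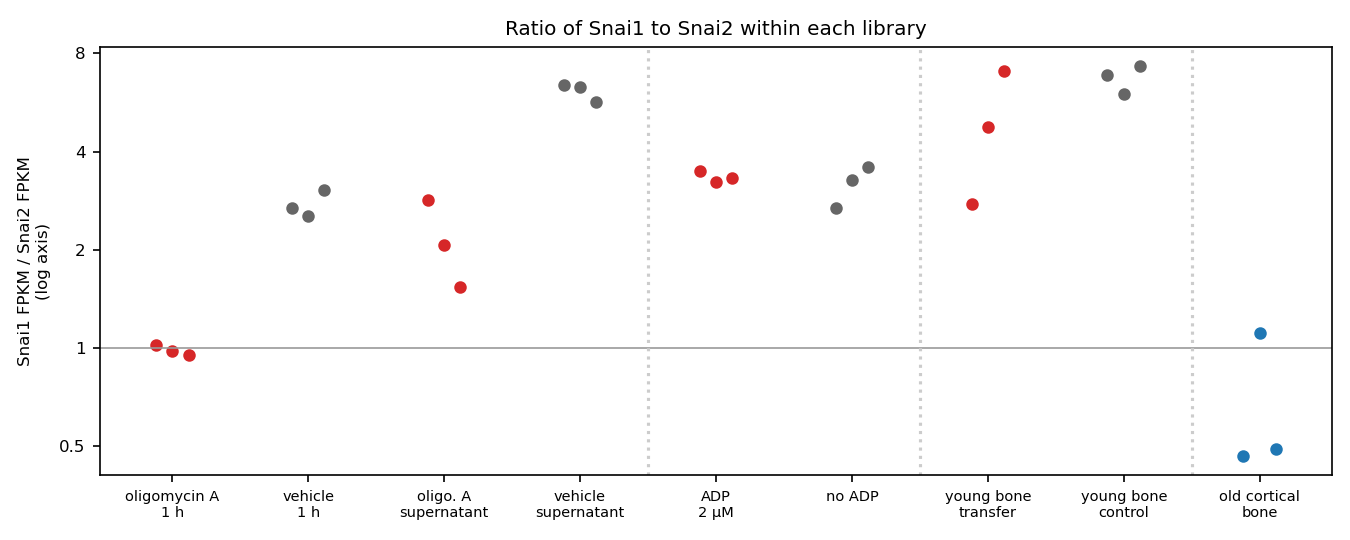
Ratio of Snai1 to Snai2 FPKM within each library, by group, on a log axis; points are libraries, and dotted lines divide tables that were normalized separately. The ratio is 0.951 to 1.02 in oligomycin A cells and 5.68 to 6.40 in recipients of vehicle supernatant.

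Over the 12 libraries of this experiment, the genes whose log2(FPKM + 1) ran most closely with each member were taken among genes with a mean of at least 5 FPKM. The 12 libraries fall into 4 groups of 3, so these coefficients largely follow group differences and carry no p. For Snai1 they were Otud4 (r = 0.969), Hmga2 (0.96) and Nifk (0.952). For Snai2 they were Chac1 (r = 0.974), Dcaf5 (0.971) and Zfp36l1 (0.971). The closest genes to the Zeb pair reached r = 0.918 (Bdkrb2 with Zeb1, followed by Pacsin2 and Kpna3) and r = 0.913 (Anapc1 and Gstcd with Zeb2, followed by Trip12). Those closest to the Twist pair reached r = 0.887 (Zfp503 with Twist1, followed by Fzr1 and 1700017B05Rik) and r = 0.864 (Metap2 with Twist2, followed by Gm7332 and Alg1).

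The gene lists below were chosen with earlier results of these data known, and nothing is read from the share of a list that passed. The p-values of listed genes carry the same limit. Among the partners that act with the family, Id3, an inhibitor of the E proteins that pair with Twist, rose in oligomycin A cells. Id3 averaged 52.8 ± 5.64 FPKM in oligomycin A cells and 25.9 ± 1.17 FPKM in vehicle cells (SD, n = 3 each). Its log2 fold change was 1.00 (adjusted p = 1.38e-05, limma). It was the 1 of 6 tested E protein and Id genes to pass, where 5.34% of all genes did. Its relative Id1 had 10.1 FPKM in oligomycin A cells and 11.03 FPKM in vehicle cells. The E protein genes Tcf3, Tcf4 and Tcf12 had log2 fold changes of -0.09, -0.21 and 0.12. The median of the 6 was -0.06, against 0.00 over all genes.

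Of all genes tested, 3.71% were higher in oligomycin A cells and 1.63% lower. Of 16 corepressors that Snail, Twist or Zeb proteins recruit, 3 were higher in oligomycin A cells and 0 lower. They were Ezh2, the histone methyltransferase of Polycomb complex PRC2 (log2 fold change 0.32, adjusted p = 0.011), Rcor1, the CoREST scaffold (0.32, adjusted p = 0.0136) and Sin3a, the Sin3 scaffold (0.26, adjusted p = 0.0436), all by limma. The calls were lost in 3, 5 and 12 of 18 alternatives. The median of the 16 was 0.04. Of 16 tested genes that control the turnover of Snail and Twist proteins, 0 passed by limma, with a median of 0.08. Among them were the kinase Gsk3b and the ubiquitin ligase subunit Btrc. Of the 16, 6 had an unadjusted limma p under 0.05, as had 22.2% of all genes.

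Of 24 tested signalling genes known to induce the family, 3 were higher in oligomycin A cells and 0 lower, with a median of 0.12. The shares over all genes were 3.71% higher and 1.63% lower. Egr1, an immediate early transcription factor, averaged 919.8 ± 40.4 FPKM in oligomycin A cells and 192.8 ± 8.70 FPKM in vehicle cells (log2 fold change 2.25, adjusted p = 8.72e-08, limma). Il6, a cytokine gene, averaged 45.9 ± 2.96 FPKM in oligomycin A cells and 25.5 ± 0.959 FPKM in vehicle cells (0.82, adjusted p = 0.000167). Smad3, a mediator of TGF-beta signals, had a log2 fold change of 0.28 (adjusted p = 0.022), a call lost in 6 of 18 alternatives.

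Among the listed target genes, 1 of 18 tested mesenchymal genes passed: Sparc, a matrix glycoprotein of bone, fell to 144.4 ± 1.66 FPKM in oligomycin A cells, against 170.6 ± 3.51 FPKM in vehicle cells (log2 fold change -0.24, adjusted p = 0.0267, limma; lost in 8 of 18 alternatives). The median of the 18 was -0.05, and 5.34% of all genes passed in this comparison. Of 3 tested osteogenic genes 1 passed: Runx2 averaged 9.41 ± 1.012 FPKM in oligomycin A cells and 7.01 ± 0.858 FPKM in vehicle cells (log2 fold change 0.38, adjusted p = 0.0313, lost in 10 of 18 alternatives). Vdr had a log2 fold change of 0.13 and did not pass (adjusted p = 0.277). In the epithelial list 1 gene of 25, Muc1, was high enough to be tested and it did not pass, at 1.498 FPKM in oligomycin A cells and 1.35 FPKM in vehicle cells (adjusted p = 0.602).

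In recipients, 4 of the 85 tested genes of the lists passed by limma, where 0.386% of all genes did. The lists were chosen with earlier results of these data known, so nothing is read from that count. Id3 averaged 31.4 ± 1.81 FPKM in recipients of oligomycin A supernatant and 21.4 ± 0.799 FPKM in recipients of vehicle supernatant, a log2 fold change of 0.53. Ajuba, a LIM protein that binds the repressor domain of Snail, averaged 4.32 ± 0.0475 FPKM in recipients of oligomycin A supernatant and 6.93 ± 0.259 FPKM in recipients of vehicle supernatant (-0.58). Hmga2, a chromatin protein known to activate Snai1, averaged 53.3 ± 2.54 FPKM in recipients of oligomycin A supernatant and 70.7 ± 1.43 FPKM in recipients of vehicle supernatant (-0.40). Egr1 was higher in recipients of oligomycin A supernatant, at 83.9 ± 12.2 FPKM against 48.8 ± 3.59 FPKM in recipients of vehicle supernatant (0.76). Ajuba and Hmga2 lay on the same side as Snai1 here, and Id3 and Egr1 on the opposite side. A link between these genes was not tested, and the call on Hmga2 was lost in 10 of 18 alternatives. Between the responses, Egr1 was the 1 listed gene that passed, at -1.49.

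Between recipients of vehicle supernatant and vehicle-treated cells, the lists moved more, as did all genes. Of all genes, 9.49% were higher and 5.18% lower. Of 18 mesenchymal genes 7 were higher and 1, Sparc, was lower. Tnc, the matrix gene for tenascin C, averaged 33.6 ± 2.58 FPKM in recipients of vehicle supernatant and 19.0 ± 2.40 FPKM in vehicle-treated cells, a log2 fold change of 0.80. Itga5, the fibronectin receptor subunit, had a log2 fold change of 0.62, Prrx1, a mesenchymal homeobox factor, 0.46, and Mmp2, a gelatinase, 0.31. Of 24 inducers 6 were higher, among them Hmga2 (0.73), Il6 (0.70) and Hgf (0.43), and 1 was lower, Egr1 (-1.96). Id1 (-0.86) and Id3 (-0.26) were the 2 of 6 E protein and Id genes that passed, and both were lower. Ajuba (0.31) and Ezh2 (0.21) were higher among 16 corepressors, Trim21 (0.51) among 16 turnover genes and Spp1 (0.33) among 3 osteogenic genes. The call was lost for Id3 in 12, for Ezh2 in 11, for Sparc in 7, for Ajuba in 3 and for Spp1 in 2 of 18 alternatives, and for Trim21 in 5 of 17. Marker sums also differed between these groups, and their part in the result was not tested. The sum of 8 osteocyte markers, mostly Pdpn, was 310.9 to 331.8 FPKM in recipients of vehicle supernatant, against 221 to 258.3 FPKM in vehicle-treated cells. Pdpn alone had 261.9 to 272.7 FPKM in recipients of vehicle supernatant, against 180.8 to 208.3 FPKM in vehicle-treated cells, and Sost was at 0 in both. Fibroblast markers, mostly Col3a1, summed to 537.8 to 628.2 FPKM in recipients of vehicle supernatant, against 503.7 to 526.6 FPKM in vehicle-treated cells. Osteoblast markers summed to 347.9 to 390 FPKM in recipients of vehicle supernatant, against 388.2 to 434 FPKM in vehicle-treated cells, and overlapped. That sum was nearly all Col1a1 (347 to 389.3 against 387.8 to 433.2 FPKM). Of the 5 osteoblast markers, 4 stayed below 1 FPKM in every MLO-Y4 library.

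**Figure D4:**
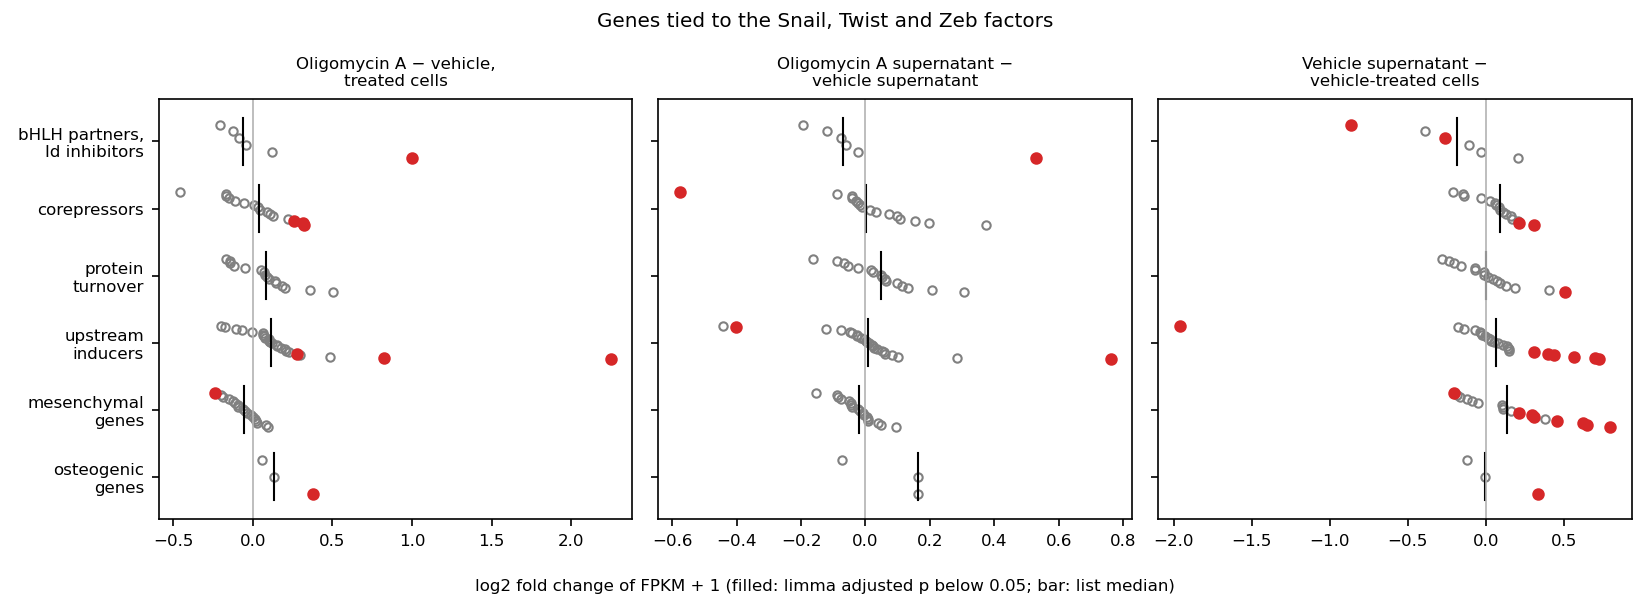
Log2 fold changes, on the log2(FPKM + 1) scale, of the listed partner, regulator and target genes in 3 comparisons of the oligomycin experiment; each point is a gene, a black bar marks the list's median, and filled points passed at an adjusted p under 0.05. Egr1 has the largest rise among listed genes in oligomycin A cells (2.25), and its point lies below 0 in recipients of vehicle supernatant against vehicle-treated cells (-1.96).

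With ADP, a nucleotide that cells release and sense through purinergic receptors, no member passed. Snai1 had 45.6, 45.4 and 47.2 FPKM with ADP, against 41.0, 46.0 and 48.7 FPKM with no ADP. Snai2 had 13.1, 14.1 and 14.2 FPKM with ADP, against 15.3, 14.1 and 13.6 FPKM with no ADP. For both genes the groups overlapped. By limma 0 of 6 members passed, while 0.0603% of all 11604 genes did. An unadjusted limma p under 0.05 was found for 0 members, against 5.84% of all genes. The groups overlapped for every member, and they did not for 10.6% of all genes. The log2 fold change was 0.03 for Snai1 (95% interval -0.12 to 0.18, adjusted p = 0.967) and -0.05 for Snai2 (-0.18 to 0.08, adjusted p = 0.917). For Twist1 it was 0.05 (-0.06 to 0.16, adjusted p = 0.895) and for Zeb2 -0.07 (-0.19 to 0.05, adjusted p = 0.886). Twist2 (-0.21 to 0.46, adjusted p = 0.912) and Zeb1 (-0.47 to 0.42, adjusted p = 0.994) had wider intervals. Zeb1 had 17.6, 12.04 and 13.1 FPKM with ADP, against 18.3, 12.4 and 12.9 FPKM with no ADP, so that replicate 1 of each group was the high one. Of 84 tested genes of the lists 0 passed and 2 had an unadjusted p under 0.05.

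In cultured fragments of young bone no member passed, and for Snai1 and Snai2 the transfer libraries spanned a wider range than the whole control group. Snai1 had 13.4, 93.7 and 8.24 FPKM after medium transfer, against 14.7, 19.5 and 25.8 FPKM in control fragments. Snai2 had 4.86, 19.7 and 1.16 FPKM after medium transfer, against 2.13, 3.24 and 3.54 FPKM in control fragments. For both genes the control libraries lay inside the range of the transfer libraries. Transfer replicate 2 held the highest value of 5 of the 6 members. In that library 8.8% of FPKM came from rRNA-like, 7S and satellite-like genes, against 67.3% to 90.3% in the other 5. The part of this difference in the members' values was not tested beyond rescaling: without those genes, Snai1 stood at 11.3, 43.2 and 15.7 after medium transfer, against 21.2, 34.1 and 30.2 in control fragments. The control range then still lay inside that of transfer.

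By limma 0 of 5 tested members passed, while 0.0243% of all 16438 genes did. An unadjusted limma p under 0.05 was found for 0 members, against 2.24% of all genes. The groups overlapped for every member, and they did not for 4.08% of all genes. The log2 fold change of Snai1 was 0.18 (95% interval -1.502 to 1.87, adjusted p = 0.95), and it turned negative under 3 other scalings, without transfer replicate 2 and without control replicate 1. That of Snai2 was 0.71 (-0.64 to 2.05, adjusted p = 0.90), and it turned negative with quantile normalization and without transfer replicate 2. Twist1 (0.66), Zeb1 (0.55) and Zeb2 (0.58) lay near the median of all genes, 0.45. Twist2 averaged under 1 FPKM over the 6 libraries and was not tested. Of 102 tested genes of the lists 0 passed and 0 had an unadjusted p under 0.05. Erythroid markers summed to 6056 to 12200 FPKM after medium transfer, against 2260 to 4633 FPKM in control fragments. Adipocyte markers (11.25 to 96.57 against 4.443 to 5.438 FPKM) did not overlap either. Nor did B lineage markers (28.41 to 69.42 against 16.61 to 23.75 FPKM), while the other marker sets overlapped. These sums were not rescaled. In tissue, fewer cells of a type and less RNA per cell cannot be told apart.

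In cortical bone of old mice every member stayed below 5 FPKM. Snai2 had 3.53, 2.23 and 3.61 FPKM, Snai1 had 1.66, 2.48 and 1.77 FPKM, and Zeb2 had 1.45, 1.57 and 1.83 FPKM, and the ranges of neighbours in this order overlapped. Zeb1 followed with 1.35, 1.03 and 1.10 FPKM. Twist1 had 0.641, 0.0567 and 0.444 FPKM and Twist2 had 0.101, 0.493 and 0.188 FPKM, which in replicate 2 left Twist1 below Twist2. By a rough depth estimate, which is uncertain for bone, the Twist1 values stand for 3 to 29.3 fragments a library. The 6 genes together summed to 7.86 to 8.94 FPKM. Erythroid markers summed to 203300 to 215100 FPKM and neutrophil markers to 97780 to 103000 FPKM in the same libraries, out of 816890 to 839628 FPKM over all genes. The part of blood-cell RNA in the members' levels was not tested.

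The family also differed in make-up between bone samples. Snai1 was the most abundant member in young control fragments, at 70.5% to 72.0% of the summed FPKM, and in old bone it made up 19.0% to 31.5%. The ratio of Snai1 to Snai2 was 2.76, 4.75 and 7.08 after medium transfer, against 6.87, 6.01 and 7.30 in control fragments, and it was 0.469, 1.11 and 0.49 in old bone. Old and young bone come from separate tables and from fresh and cultured tissue, so age cannot be told apart from these differences and no test was made.

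**Figure D5:**
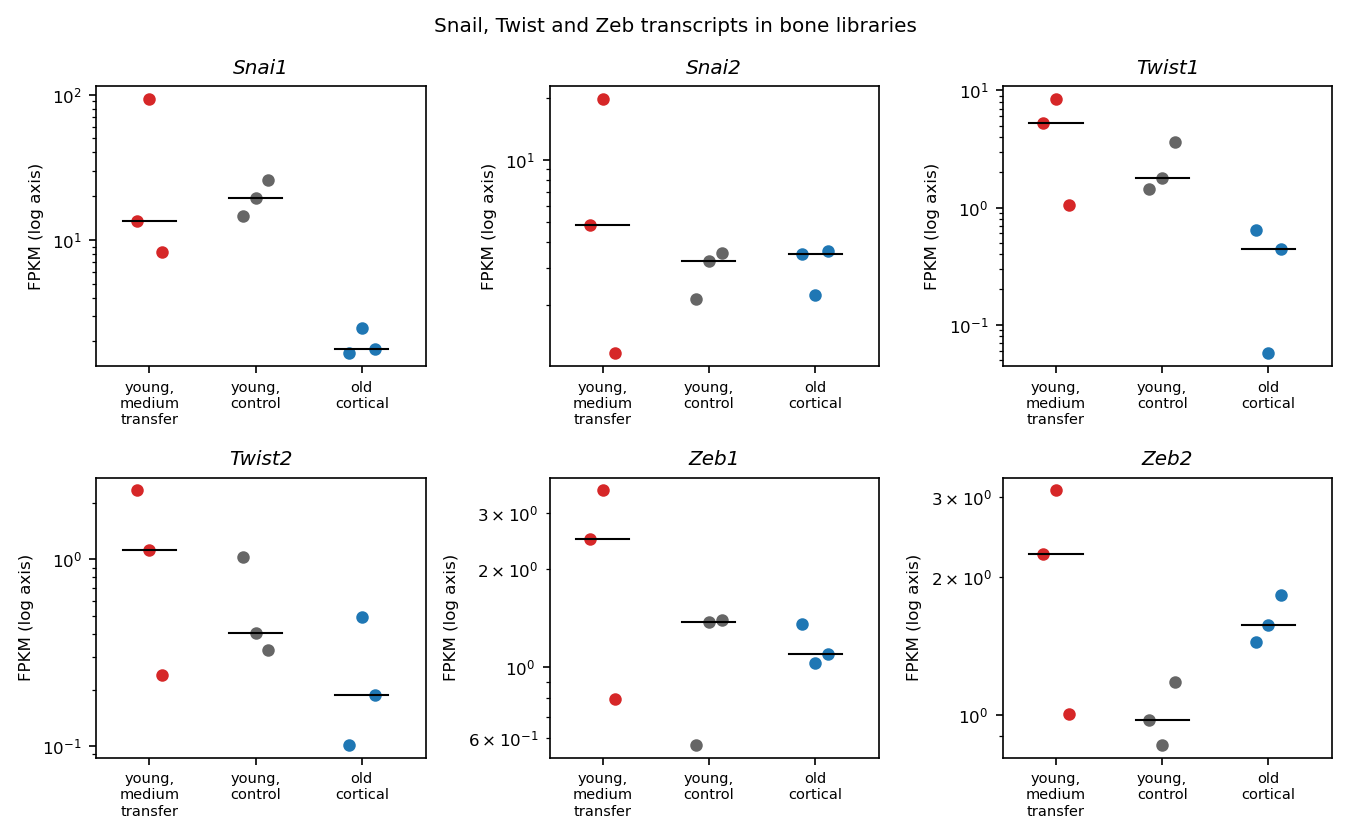
FPKM of the 6 genes in each bone library on log axes, with medium transfer and control fragments of young bone and, from a separately normalized table, old cortical bone; points are libraries and lines their medians. Transfer replicate 2 is the top point for 5 of the 6 genes, and Snai1 lies at 1.66 to 2.48 FPKM in old bone.

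Twist2, Zeb1 and Zeb2 overlap other annotated genes, some antisense, and the sources used here do not give the strand setting of the counting, so reads from such partners cannot be told apart. Snai1 and Snai2 each have 1 annotated transcript, whereas Zeb1 has 12 and Zeb2 has 29, so the length used for FPKM matters more for the Zeb genes.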

How the data were processed

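Messenger RNA was captured on oligo(dT) beads and sequenced on an Illumina instrument, per the labels' protocols. FPKM values with gene symbols were deposited by the authors in 4 tables. How FPKM was computed is not stated in the sources used here. HTSeq and mm10 appear, without a role, in the submitters' processing notes. Groups came from sample titles. Of 48 samples, 21 samples in 7 groups were not analysed here.

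The tests used limma 3.58.1 (R 4.3.3) on log2(FPKM + 1). A gene entered a fit if its FPKM averaged at least 1 over that fit's libraries, and the variance prior followed the mean level. The 12 oligomycin libraries shared 1 fit, and the ADP and young bone tables had 6 libraries each. P-values were adjusted by Benjamini-Hochberg over all genes of a fit, with a threshold of 0.05. The tables hold no counts. Steps between low FPKM values gave a rough depth of 14.7 M to 25.3 M fragments a library for MLO-Y4, 28.1 M to 33.2 M for old bone and 1.57 M to 6.23 M for young bone. Since 21.7% to 40.7% of low values came out whole within 0.1, no counts could be recovered for a count test. The fit was tested on simulated data.

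The members and the gene lists were chosen with earlier results of these data known. From each list, up to 4 genes that passed in a comparison were named by p, with other list genes given for context. For each member the 3 genes with the highest Pearson correlation were named. Of 55335 gene identifiers, 55154 matched GENCODE M21. Other pseudocounts, filters, scalings, priors, a replicate block and leaving out each library were tried.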

Additional observations from a re-analysis of the deposited data

How the results depend on the processing

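No member's called change reversed. In treated cells given oligomycin A, 1 member passed, and 2 did with median-of-ratios scaling or quantile normalization (1 to 2 over fits without 1 library); Snai1 was the added call. In recipients 1 passed, and 2 did with a mean of at least 5 FPKM, after leaving rRNA-like, 7S and satellite-like genes out of the totals, and under quantile or median-of-ratios scaling (1 to 2 without 1 library). For the difference of responses 0 passed, and 1 did with a mean of at least 5 FPKM, median-of-ratios or quantile scaling (0 to 1 without 1 library). Between recipients of vehicle supernatant and vehicle-treated cells 2 passed, and 1 did with no filter, with libraries rescaled to one total with or without mitochondrial genes, with median-of-ratios or quantile scaling, with a constant variance prior and with the replicate block (1 to 2 without 1 library). The causes were not tested. Over all genes, calls ran from 241 to 1226 around 636 for oligomycin A, 7 to 85 around 46 in recipients, 23 to 102 around 53 for the difference and 496 to 2211 around 1746 between the vehicle groups. They ran from 0 to 8 around 7 for ADP (0 to 40 without 1 library) and from 0 to 3 around 4 in young bone (0 to 7). Under median-of-ratios and quantile scaling, where members were added, all-gene calls also rose, to 1170 and 1226 for oligomycin A. In recipients they were 81 and 85, and for the difference 102 under both. Between the vehicle groups they were 2211 and 2208, though fewer members passed. With libraries at one total, the all-gene median became 0.12, -0.12, 0.14 and 0.78 for oligomycin A, the difference, the vehicle groups and young bone. Higher and lower calls for oligomycin A were 442 and 194, against 257 and 19 at one total, 704 and 522 with quantiles, and 286 and 366 without vehicle replicate 2. Between the vehicle groups they were 1129 and 617, against 485 and 102 at one total and 1120 and 1088 with quantiles. Same-numbered oligomycin libraries did not deviate together (r from -0.14 to 0.06), and the replicate block gave 434, 28, 35, 1460, 0 and 2 calls in the 6 comparisons in the order of the text, with 1, 1, 0, 1, 0 and 0 members. By the rough depths, which are uncertain for bone, Twist1 in young bone stood for as few as 5.8 and Snai2 for as few as 8.0 fragments.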
